A study of Mus musculus with 9 samples.

Results

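Progenitors of mouse bone marrow that carry c-kit and Gr1 were compared according to whether they also carry Mac1, the surface integrin made of the products of Itgam and Itgb2. The comparison is made of 6 of the 9 arrays in the study: 3 arrays of c-kit+ Gr1+ Mac1+ cells and 3 of c-kit+ Gr1+ cells whose titles read Mac1- and whose descriptions read Mac1lo/-, called Mac1lo here. The arrays were put in their groups by these titles alone, and all 18193 named genes of the arrays were tested. The other 3 arrays hold neutrophils, took no part in the fit and are given as a point of reference. They did enter the choice of each gene's probe set, made by the mean over all 9 arrays. All 3 groups came from bone marrow of C57BL/6 mice of 4 to 10 weeks, male or female, with no treatment or engineered allele stated, and cells bearing IL7Rα, TER119, B220, CD8, CD4 or CD3 were kept out of both c-kit+ populations. By the labels, both progenitor populations were undifferentiated cells or myeloblasts under the microscope. Nothing in the labels says that the 3 arrays of a group are separate animals or pools, so p-values measure only the spread between these arrays, which may be technical.

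Neutrophils and monocytes arise from a shared myeloid progenitor, and a developing neutrophil fills its granules in sequence: the primary (azurophil) granule with myeloperoxidase and serine proteases comes first, the secondary (specific) granule with lactoferrin and its relatives later, and the gelatinase granule later still. Mac1 is a surface adhesion receptor whose membrane store lies in these later granules, while c-kit, the receptor of stem cell factor, is a marker of immature cells. Monocyte and dendritic cell fates rest on another set of genes, among them the transcription factor Irf8 and the receptor of macrophage colony stimulating factor, Csf1r.

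Levels below are intensities of the probe set chosen for each gene, given for replicates 1, 2 and 3 in that order, and differences are Mac1+ minus Mac1lo on the log2(intensity + 16) scale with the standard error of limma's fit. The offset of 16 makes the differences of dim genes smaller than their intensities show. A gene is called at an adjusted p under 0.05 (Benjamini-Hochberg over all 18193 genes). Levels of different genes depend on their probes and are not compared with each other. Mean intensity was 678 to 727 on the 6 arrays, with medians of 39.1 to 42.2. Arrays of the same group correlated at 0.987 to 0.994 and arrays of different groups at 0.965 to 0.971 (Pearson's r across genes, which are not independent replicates). The first principal component held 70.4% of the variance, and put the Mac1lo arrays at -44.6 to -41.1 and the Mac1+ arrays at 42.8 to 44.3. The array's control probe sets for Actb were higher in Mac1+ arrays by 0.26 at the 3' end, 0.40 in the middle and 0.54 at the 5' end, and those for Gapdh differed by 0.02, 0.00 and -0.14; the part of RNA quality in the results was not tested.

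Of the genes tested, 2274 (12.5%) were higher in Mac1+ cells and 2235 (12.3%) were lower, together 4509 (24.8%). The groups did not overlap for 7253 genes (39.9%). Calls of at least 2-fold numbered 632 higher (3.47%) and 711 lower (3.91%), and calls of at least 8-fold 62 higher (0.341%) and 67 lower (0.368%). Centring each array on its median gene moved the median difference of all genes from -0.01 to 0.17 and gave 3962 higher against 1467 lower, so that 73.0% of calls were higher against 50.4% in the fit as reported. Differences smaller than that shift depend on the scale chosen. In bulk samples such as these, fewer cells of a type and less RNA per cell cannot be told apart.

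**Figure D1:**
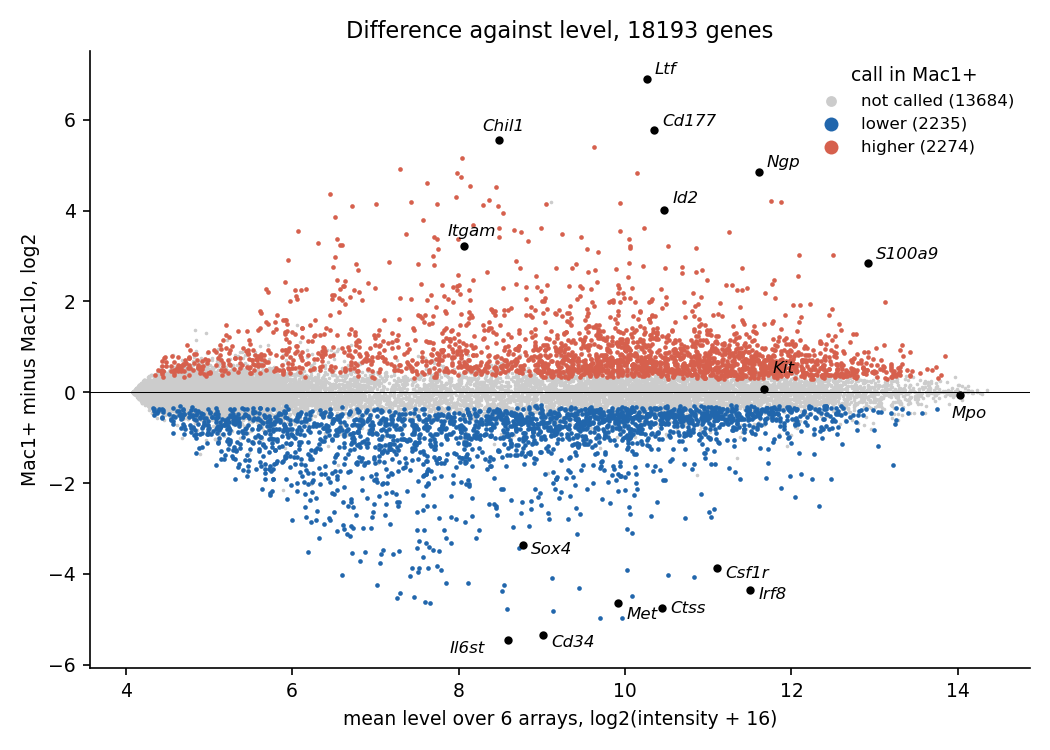
Difference between Mac1+ and Mac1lo cells (vertical axis, log2) against the mean level over the 6 arrays (horizontal axis, log2(intensity + 16)) for all 18193 genes, each a point: red called higher, blue called lower, grey not called. Ltf lies highest at 6.90 and Il6st lowest at -5.45, while Kit and Mpo lie near 0.

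Of the genes of the sorted antigens, both chains of Mac1 were higher in Mac1+ cells and Kit was not called. Itgam, the alpha chain of Mac1, was 74.1, 69.2 and 71.7 in the Mac1lo arrays and 919.8, 823 and 695 in the Mac1+ arrays, 3.23 ± 0.12 higher (limma adjusted p = 1.61e-05). Itgb2, its beta chain, was 2995, 2986 and 3116 against 11333, 10239 and 10999, 1.83 ± 0.09 higher (limma adjusted p = 3.41e-05). Neither gene's groups overlapped. Kit, which was not used to split these groups from each other, was 2998, 3217 and 3228 against 3336, 3176 and 3469.9, a difference of 0.08 ± 0.09 (limma adjusted p = 0.596), and its groups overlapped. The gene encoding the Gr1 antigen is not analysed here.

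**Figure D2:**
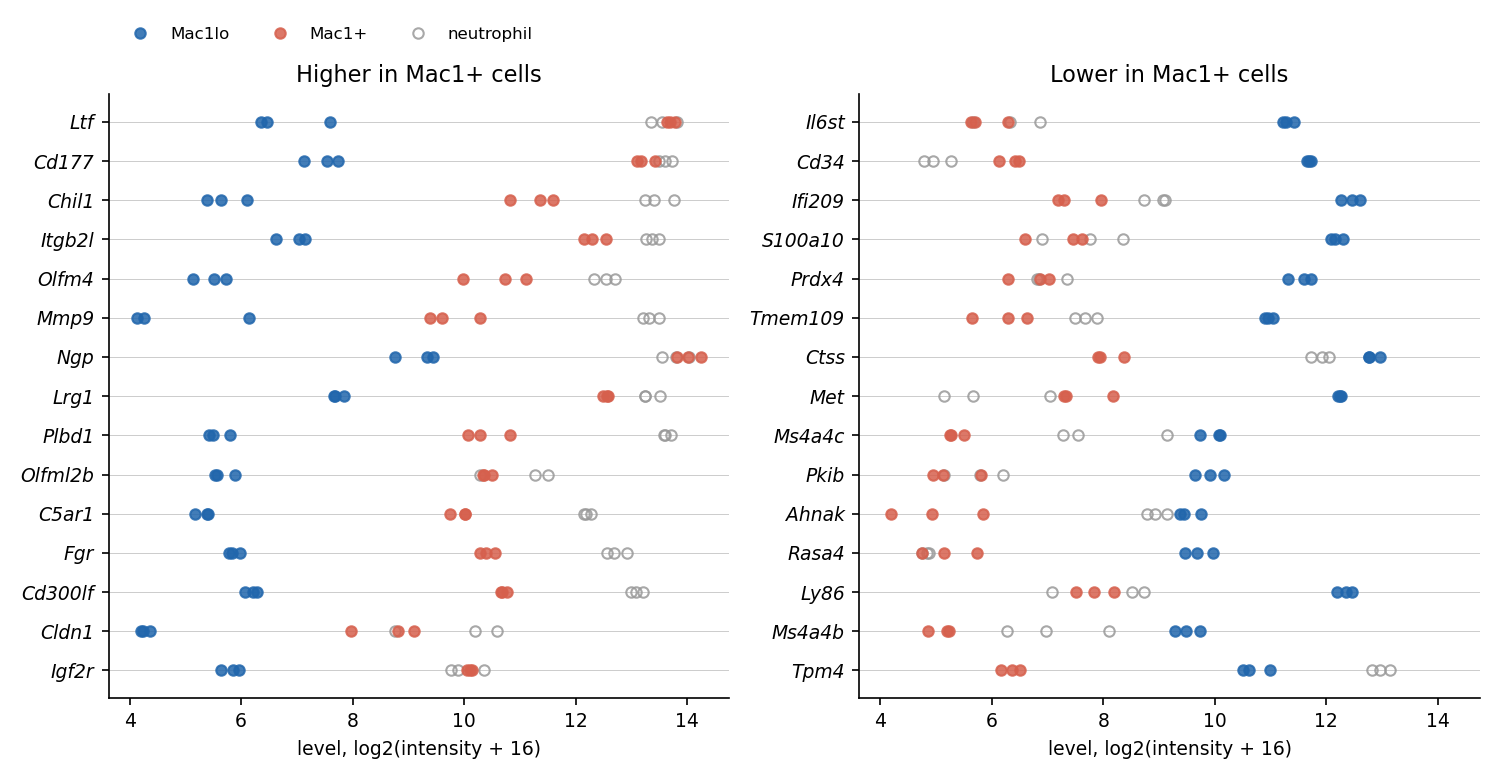
Levels (log2(intensity + 16)) of the 15 genes with the largest rises (left) and the 15 with the largest falls (right) in Mac1+ cells, 1 point per array: blue Mac1lo, red Mac1+, open grey circles neutrophils. Genes were eligible only where blue and red points do not overlap, which holds for 39.9% of all genes. The intensity of Ltf was 65.9 to 178 in Mac1lo and 12789 to 14085 in Mac1+ arrays, and that of Cd34 3215 to 3352 and 54.1 to 73.6.

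The secondary granule genes were the group with the largest median rise. Of 17 measured, 16 were higher and 0 lower (background 12.5% higher), with a median difference of 4.10 against -0.01 over all genes. Ltf, which encodes lactoferrin, was 178, 72.3 and 65.9 in Mac1lo and 14085, 12789 and 13224 in Mac1+ cells. Its groups did not overlap, and the difference was 6.90 ± 0.32, 120.0-fold (limma adjusted p = 3.19e-05). Cd177, a neutrophil surface protein, was 198, 123 and 170.1 against 11045, 9204 and 8747, higher by 5.77 ± 0.18. Chil1, a chitinase-like protein, was 34, 25.6 and 52.4 against 3079, 2629 and 1794, higher by 5.56 ± 0.25. All 3 Mac1+ arrays stood far above the Mac1lo ones for both genes. Itgb2l, a relative of the Itgb2 chain, rose by 5.40 ± 0.17, though of its 3 probe sets only 1 was called. Olfm4, olfactomedin 4, rose by 5.16 ± 0.31. Ngp, neutrophilic granule protein, was 633, 680.3 and 416 against 14483, 16527 and 19428, 4.85 ± 0.21 higher. Camp, cathelicidin, rose by 4.21 ± 0.26, Lcn2, lipocalin 2, by 4.18 ± 0.11 and Orm1, orosomucoid, by 4.10 ± 0.16. Pglyrp1, a peptidoglycan binding protein, was higher by 3.01 ± 0.10 and Chil3, another chitinase-like protein, by 1.99 ± 0.09. Hp, haptoglobin, was already 10877, 9820.1 and 10414 in Mac1lo cells and rose by 0.42 ± 0.10, a call lost without Mac1lo replicate 2 or 3 or Mac1+ replicate 3. The member not called was Mmp8, neutrophil collagenase, at 182, 102 and 116 against 134, 138 and 128 (0.04 ± 0.20, limma adjusted p = 0.921), while neutrophils had 14115, 12308 and 13238. With any 1 array left out, 15 to 16 of the 17 were higher.

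The sequences just upstream of 4 of these genes are shown because they hold letters matched by the C/EBP family, factors of granulocyte genes, and because 1 of the 4, Mmp8, did not move with the others. Capitals mark TTGCNNAA (C/EBP) and GAGGAAG (PU.1), searched on both strands; the motifs do not overlap in these windows. Each line is the 250 bases before the annotated start site (RefSeq promoter table, GRCm38.p6), written 5' to 3' on the gene's own strand: Ltf on the plus strand at chr9:111019042-111019291, Ngp plus at chr9:110419558-110419807, Lcn2 minus at chr2:32387740-32387989 and Mmp8 plus at chr9:7558179-7558428.
Ltf: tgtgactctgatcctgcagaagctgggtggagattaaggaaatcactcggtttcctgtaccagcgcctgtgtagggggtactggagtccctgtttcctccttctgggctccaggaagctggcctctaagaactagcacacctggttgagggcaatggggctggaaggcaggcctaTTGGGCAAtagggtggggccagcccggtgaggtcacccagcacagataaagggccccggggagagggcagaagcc
Ngp: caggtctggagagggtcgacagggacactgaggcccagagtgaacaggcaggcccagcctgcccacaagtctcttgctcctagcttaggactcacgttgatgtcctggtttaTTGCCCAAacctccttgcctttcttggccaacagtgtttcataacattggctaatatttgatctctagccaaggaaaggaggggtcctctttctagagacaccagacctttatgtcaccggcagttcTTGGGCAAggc
Lcn2: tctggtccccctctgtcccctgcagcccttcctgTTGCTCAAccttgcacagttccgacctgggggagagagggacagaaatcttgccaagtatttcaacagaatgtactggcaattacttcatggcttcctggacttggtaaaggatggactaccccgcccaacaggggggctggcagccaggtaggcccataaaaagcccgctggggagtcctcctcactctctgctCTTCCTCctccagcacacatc
Mmp8: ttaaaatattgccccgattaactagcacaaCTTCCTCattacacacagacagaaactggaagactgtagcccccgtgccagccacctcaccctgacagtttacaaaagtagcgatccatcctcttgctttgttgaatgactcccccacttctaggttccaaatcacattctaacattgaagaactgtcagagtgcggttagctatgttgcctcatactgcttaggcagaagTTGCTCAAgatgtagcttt
The C/EBP letters lie at -75 to -68 in Ltf, at -138 to -131 and -11 to -4 in Ngp, at -216 to -209 in Lcn2 and at -19 to -12 in Mmp8, counted from the base before the start site as -1. Of the 17 secondary granule genes, 14 have a promoter in the table, and 4 of these (28.6%) held the C/EBP letters, against 9.65% of the 14452 tested genes with a promoter, 10.2% of the genes called higher and 9.07% of those called lower. The PU.1 letters stood in 5 of the 14 (35.7%) against 12.7% of tested genes, 15.3% of higher and 12% of lower genes. A match is a description of letters, and no match says only that the letters are not in this window.

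The peroxidase and serine proteases of the primary granule were not called. Mpo, myeloperoxidase, was 18816, 15619 and 16474 in Mac1lo and 14636, 15723 and 18703 in Mac1+ cells (-0.06 ± 0.13, limma adjusted p = 0.813), with overlapping groups. Elane, neutrophil elastase, differed by 0.09 ± 0.11 and Ctsg, cathepsin G, by 0.03 ± 0.11; Prtn3, proteinase 3, was at a difference of -0.07 ± 0.12; none of the 4 was called under any setting tried. Of 9 genes of the group 2 were higher (22.2%) and 1 lower (11.1%), where all genes had 12.5% and 12.3%, with a median difference of 0.03. Serpinb1a, an inhibitor of these proteases, rose by 0.88 ± 0.08 and Cst7, cystatin F, by 0.45 ± 0.11, a call lost without Mac1lo replicate 2 or 3 or Mac1+ replicate 2 or 3. Ctsc, cathepsin C, which activates the granule proteases, was 7663, 7714 and 7673 against 1966, 2096 and 2321 and fell by 1.85 ± 0.10.

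Genes of late neutrophil differentiation were higher in 12 of 18 measured (66.7%, against 12.5% of all genes) and lower in 1, with a median of 1.06. All 8 surface members rose. Of the 10 granule contents and enzymes only 4 rose, 1 fell and 5 were not called, with a median of 0.45. Il1r2, the decoy receptor of interleukin-1, was 64.6, 52.7 and 64.2 against 1394, 1443 and 1423, 4.23 ± 0.10 higher (limma adjusted p = 9.23e-06). Fpr2, a formyl peptide receptor, was 84.8, 66.7 and 59.8 against 2208, 1552 and 887, 4.09 ± 0.32 higher. Cd300lf, an inhibitory receptor, rose by 4.52 ± 0.10 and Pilra, a paired inhibitory receptor, by 3.34 ± 0.14. Neutrophils had higher values of all 4 than Mac1+ cells, for Il1r2 11327, 8924 and 8956. Csf3r, the receptor of granulocyte colony stimulating factor, was 2624, 2437 and 2423 in Mac1lo cells already and rose by 1.03 ± 0.09. Among the enzymes, Mmp9, gelatinase B, was 54.7, 3.15 and 1.5 against 1225, 763 and 657, 4.91 ± 0.55 higher, and 5.56 higher without Mac1lo replicate 1, where it was brightest of the 3. Ltf was also brightest in that array. Padi4, which citrullinates histones, rose by 3.38 ± 0.14. The member that fell was Hpse, heparanase, from 2263, 1967 and 2039.5 to 324, 366 and 442 (-2.43 ± 0.13).

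All 7 NADPH oxidase genes, which encode the enzyme of the respiratory burst, were higher, with a median of 0.98; 6 of 7 were higher with any 1 array left out. Cybb, the catalytic subunit, was 2056, 2089.7 and 2641 against 9576, 8503 and 7776, 1.93 ± 0.14 higher (limma adjusted p = 0.000158). Hvcn1, a proton channel, rose by 1.34 ± 0.09, Ncf4 by 1.28 ± 0.13, Ncf1 by 0.98 ± 0.10, Cyba by 0.94 ± 0.09 and Rac2, a small GTPase, by 0.89 ± 0.11. In each the Mac1+ arrays lay above the Mac1lo arrays.

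Monocyte and macrophage genes moved the other way. Of 28 measured, 20 were lower and 1 higher (background 12.3% lower), with a median of -1.86. The summed intensity of the 28 was 85064 to 92896 in Mac1lo and 15749 to 18073 in Mac1+ cells, with no overlap, and 65692 to 83644 in neutrophils, above the Mac1+ arrays. Ctss, cathepsin S, was 6918, 6962 and 7951 against 231, 223 and 315, and fell by 4.76 ± 0.15 (limma adjusted p = 1.32e-05). Ms4a4c, a tetraspan protein, was 834, 1057 and 1085 against 22.3, 22.1 and 29.2, a difference of -4.63 ± 0.14. Ly86, the partner of the receptor RP105, fell from 5613, 4646 and 5222 to 168, 213 and 278 (-4.48 ± 0.18), Pld4 fell by 4.30 ± 0.27 and Ms4a6c fell by 4.02 ± 0.11. Irf8, the transcription factor of monocyte fate, was 13516, 12624 and 13335 against 432, 549 and 1047, a difference of -4.35 ± 0.30. Cx3cr1, a chemokine receptor, fell by 2.50 ± 0.11. Ccr2, a chemokine receptor of monocytes, was 2718, 4074 and 3843 against 2426, 1183 and 309.9, spread widely among the Mac1+ arrays, and was not called (-1.83 ± 0.68, limma adjusted p = 0.105), though it was called with the mean of its probe sets (-2.20), with array weights (-1.82) and without Mac1+ replicate 1 (-2.49). The member that was higher, C1qc, rose by 0.84 ± 0.19, a call lost without Mac1+ replicate 1 or 2.

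The neutrophil levels of single genes from this and other groups follow. Csf1r was 8385, 8166 and 8797 in Mac1lo, 485, 507 and 715 in Mac1+ and 12949, 7976 and 7112 in neutrophils, and Ctss 3857, 4229 and 3365 in neutrophils. Tpm4, a tropomyosin, was 2028, 1446 and 1557 in Mac1lo, 66.5, 55.4 and 74.8 in Mac1+ and 9023, 7959 and 7262 in neutrophils. Ifitm1, a membrane protein of the interferon response, was 709, 662 and 901 in Mac1lo, 63.1, 65.1 and 53.4 in Mac1+ and 8207, 6779 and 6897 in neutrophils. Other monocyte genes named above were far below their Mac1lo levels in neutrophils too. There Irf8 was 373, 623 and 309, Ly86 413, 349 and 119, Pld4 119, 472.5 and 273 and Cx3cr1 33, 44.4 and 29.5. No contrast with neutrophils was fitted.

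Dendritic cell genes were lower in 5 of 13 (38.5%, against 12.3% of all genes) and higher in 0, with a median of -0.43. Of the 13, 8 were under an intensity of 100 on all 6 arrays. Flt3 was 112, 70.1 and 122 in Mac1lo cells and 1.0, 20.2 and 10.7 in Mac1+ cells, near the floor. Clec10a, a lectin, fell by 3.71 ± 0.18, Btla fell by 3.63 ± 0.20, Flt3, a growth factor receptor of early progenitors, fell by 2.18 ± 0.31, Bst2, tetherin, fell by 1.63 ± 0.18, and Tcf4 fell by 1.10 ± 0.16, with 5 of its 6 probe sets called and another at 0.02; the Tcf4 call was lost in the model of all 9 arrays. MHC class II genes were lower in 3 of 8 (37.5%, median -0.31). H2-DMa fell by 2.27 ± 0.19, H2-Ob fell by 1.48 ± 0.20 and H2-Oa fell by 1.36 ± 0.17, all 3 of them class II loading genes. H2-Ob was dim, at 51, 40.9 and 61.9 against 5.21, 15.4 and 4.47. MHC class I genes were lower in 5 of 11 (45.5%, median -0.26). H2-M3 fell by 1.66 ± 0.11 and Nlrc5, a class I activator, fell by 1.48 ± 0.18. Of the immunoproteasome subunits Psmb8 fell by 0.89 ± 0.09 and Psmb10 fell by 0.67 ± 0.10. Tap1, the peptide transporter, fell by 0.50 ± 0.12, but its call was lost without Mac1lo replicate 1 or 3 or Mac1+ replicate 1 or 2.

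Receptors that mark stem and progenitor cells were 4 higher and 4 lower of 19, 21.1% each way against 12.5% and 12.3% of all genes. Their median was -0.10 (0.08 with median gene centring). Cd34, a sialomucin, was 3352, 3317 and 3215 against 54.1, 73.6 and 69.9, a difference of -5.35 ± 0.12, 40.7-fold (limma adjusted p = 9.09e-06). Cd48 fell by 1.44 ± 0.22 and Cd93 fell by 1.35 ± 0.10, whereas Cd9 rose by 2.85 ± 0.12 and Prom1, prominin 1, by 1.95 ± 0.10. Cd34 and Cd48 fell, while Kit was not called. The receptor tyrosine kinases were 3 higher (13.6%, close to the 12.5% of all genes) and 5 lower (22.7%) of 22 (median -0.07, or 0.11 with median gene centring), and 5 were higher without Mac1+ replicate 1. Met, the receptor of hepatocyte growth factor, was 4716, 4829 and 4878 against 145, 140.0 and 275, a difference of -4.64 ± 0.24; Pdgfrb fell by 2.76 ± 0.21 and Fgfr3 fell by 2.38 ± 0.34, but each has a second probe set that was not called, at 0.20 for Pdgfrb and 0.18 for Fgfr3.

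Cytokine receptors were higher in 11 of 46 (23.9%, against 12.5% of all genes) and lower in 7 (15.2%, close to the 12.3% of all genes). Their median was 0.10. With any 1 array left out 8 to 9 were higher and 5 to 8 lower, and in the model of all 9 arrays 6 and 5. In the interleukin-1 family 5 of 7 rose and 0 fell: Il1r2 as above, Il18rap by 2.29 ± 0.13 and Il18r1 by 2.28 ± 0.16. In the interleukin-6 family 0 of 6 rose and 2 fell. Il6st, the shared signalling chain gp130, was 2385, 2477 and 2740.3 in Mac1lo and 33.2, 36 and 62.1 in Mac1+ cells, a difference of -5.45 ± 0.19, though only 2 of its 4 probe sets were called. Il6ra fell by 1.18 ± 0.26, with 1 of its 2 probe sets called, a call lost without Mac1lo replicate 3 or Mac1+ replicate 1 or 3. Il10ra fell by 3.51 ± 0.11, with 1 of its 3 probe sets called. Chemoattractant receptors were 7 higher (26.9%) and 4 lower (15.4%, close to the 12.3% of all genes) of 26 (median 0.24). C5ar1, the complement C5a receptor, was 20.0, 26.6 and 25.6 against 1015, 1025 and 841, higher by 4.61 ± 0.12. Cxcr2, a chemokine receptor of neutrophils, was 31.3, 20.9 and 31.6 against 183, 210.1 and 220.2, higher by 2.33 ± 0.14, and 6149, 6439 and 6379 in neutrophils. Ltb4r1, the leukotriene B4 receptor, rose by 1.70 ± 0.09.

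Pattern recognition genes were split, 10 higher (29.4%, against 12.5% of all genes) and 13 lower (38.2%, against 12.3%) of 34. Clec4a2 rose by 1.91 ± 0.11, while Ly96 fell by 2.42 ± 0.10, Clec7a, dectin-1, fell by 2.23 ± 0.11 and Clec4b1 fell by 1.57 ± 0.19. Fc and paired receptors were 12 higher (57.1%) and 2 lower (9.52%) of 21, with a median of 0.75. Pilrb1 rose by 3.23 ± 0.11, Cd33 by 1.71 ± 0.16 and Fcgr4 by 1.69 ± 0.11. Integrins were 10 higher (32.3%) and 4 lower (12.9%, close to the 12.3% of all genes) of 31 (median 0.16). Without Mac1lo replicate 2 or 3 or Mac1+ replicate 2 or 3, 2 were lower. Itga1 fell by 4.19 ± 0.23 and Itgb7 fell by 2.70 ± 0.18. S100 and annexin genes were 8 higher (34.8%) and 7 lower (30.4%) of 23, with 5 higher without Mac1lo replicate 2 or 3. S100a9, a calprotectin subunit, was 3637, 2841 and 2300.0 against 19642, 20009 and 22749, a rise of 2.84 ± 0.18, and its partner S100a8 rose by 0.80 ± 0.12. In contrast S100a10 fell from 5072, 4302 and 4562 to 81.1, 159 and 180.4 (-4.96 ± 0.26), S100a4 fell by 2.35 ± 0.38, S100a6 fell by 1.05 ± 0.17, Anxa6 fell by 2.36 ± 0.16 and Anxa4 fell by 1.51 ± 0.15.

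**Figure D3:**
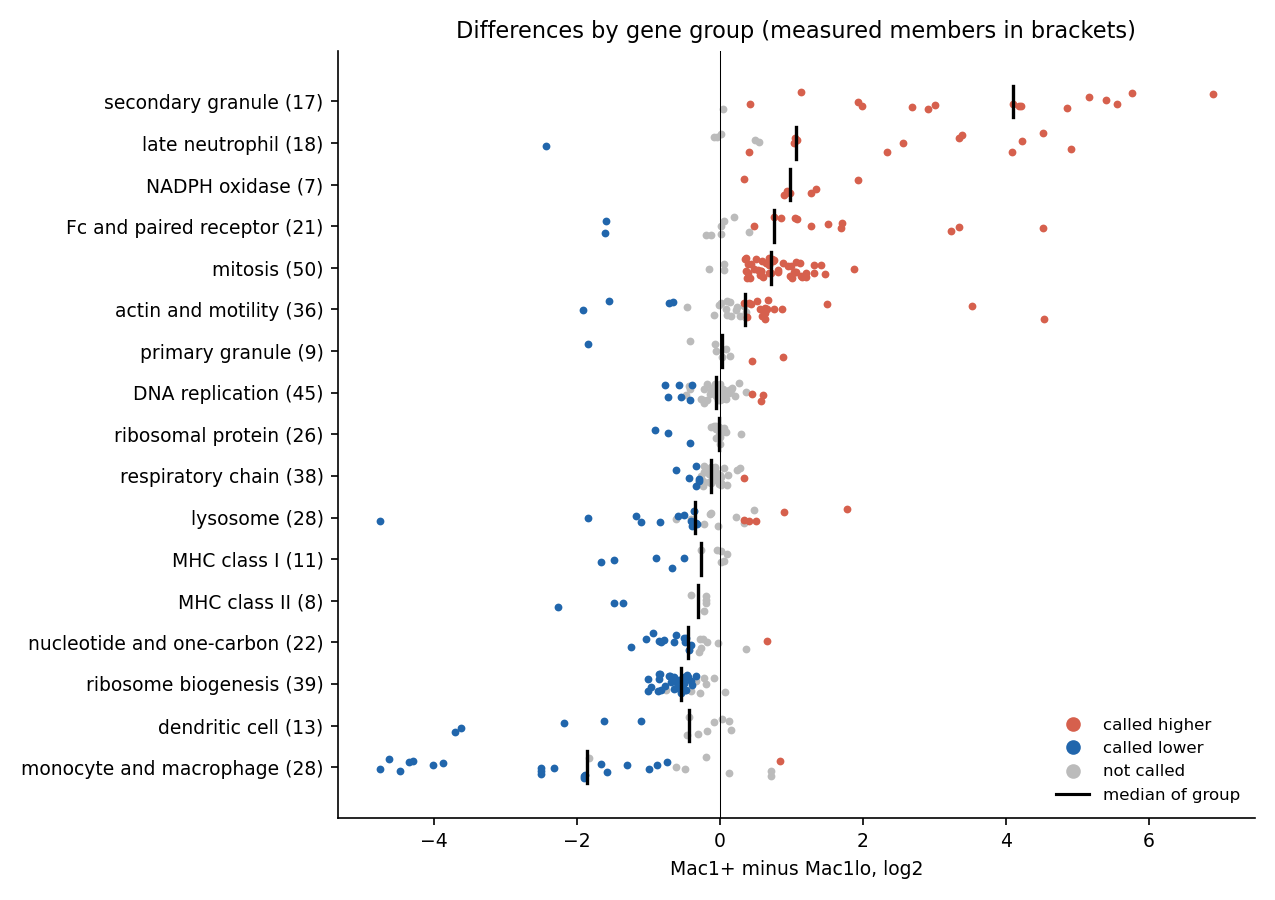
Difference between Mac1+ and Mac1lo cells (horizontal axis, log2) of every measured member of 17 gene groups: red called higher, blue called lower, grey not called, with the median of the group as a black bar. Secondary granule genes have a median of 4.10 and monocyte and macrophage genes one of -1.86, while primary granule genes centre on 0.03.

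Transcription factors of blood cells were 30 higher (26.1%, against 12.5% of all genes) and 28 lower (24.3%, against 12.3%) of 115, with a median of 0.06. The 15 measured C/EBP and Ets factors were 6 higher (40%) and 4 lower (26.7%). Cebpd was 3987, 3194 and 3477 against 7394, 7331 and 7915, a rise of 1.09 ± 0.11, and Spi1, which encodes PU.1, rose by 0.79 ± 0.12. Ets1 rose by 3.22 ± 0.15. Cebpb was not called (0.09 ± 0.19, limma adjusted p = 0.786) and Cebpa fell by 0.39 ± 0.11 at the edge of the threshold, with its call lost when any 1 array was left out. Id2, an inhibitor of E proteins, was 337, 321 and 350.3 against 6017, 5571 and 5509, a rise of 4.02 ± 0.09 (limma adjusted p = 9.09e-06), and Id1 rose by 1.74 ± 0.18. Mxd1, a Max partner that opposes Myc, rose by 2.71 ± 0.13, while Myc fell by 0.77 ± 0.18, a call lost without Mac1lo replicate 1, 2 or 3 or Mac1+ replicate 2.

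Of 16 interferon regulatory and Kruppel-like factors 6 were higher (37.5%) and 4 lower (25%), where all genes had 12.5% and 12.3%. Klf5 rose by 2.73 ± 0.19, with 2 of its 3 probe sets called and another at -0.08. Irf8, given above, Irf5 (-2.85 ± 0.16, 1 of its 2 probe sets called) and Klf4 (-1.89 ± 0.19) fell. Gfi1, a repressor needed for neutrophil development, was 3615, 4241 and 3652 against 8344, 8398 and 8772, a rise of 1.15 ± 0.10, and its groups did not overlap. In the Runx, Gfi1, Gata and haematopoietic family 6 of 35 rose (17.1%) and 13 fell (37.1%). Sox4 fell by 3.36 ± 0.16, Hoxa9 fell by 2.19 ± 0.21, Zeb2 fell by 2.17 ± 0.15 and Mef2c fell by 1.84 ± 0.13. Sox4 has 8 probe sets, of which 1 was called higher and 3 lower, and Hoxa9 has 2, of which 1 was called. Myb was 8865, 10074 and 9632 against 8888, 8251 and 9807 and was not called (-0.09 ± 0.11). In the STAT and NF-kB family 5 of 17 rose (29.4%) and 0 fell. Stat3 rose by 1.29 ± 0.09. Of 15 AP-1 and early response factors 2 rose (13.3%, close to the 12.5% of all genes), 4 fell (26.7%) and 9 were not called. Among those lower, Fos fell by 1.46 ± 0.11 and Jun fell by 1.40 ± 0.14.

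**Figure D4:**
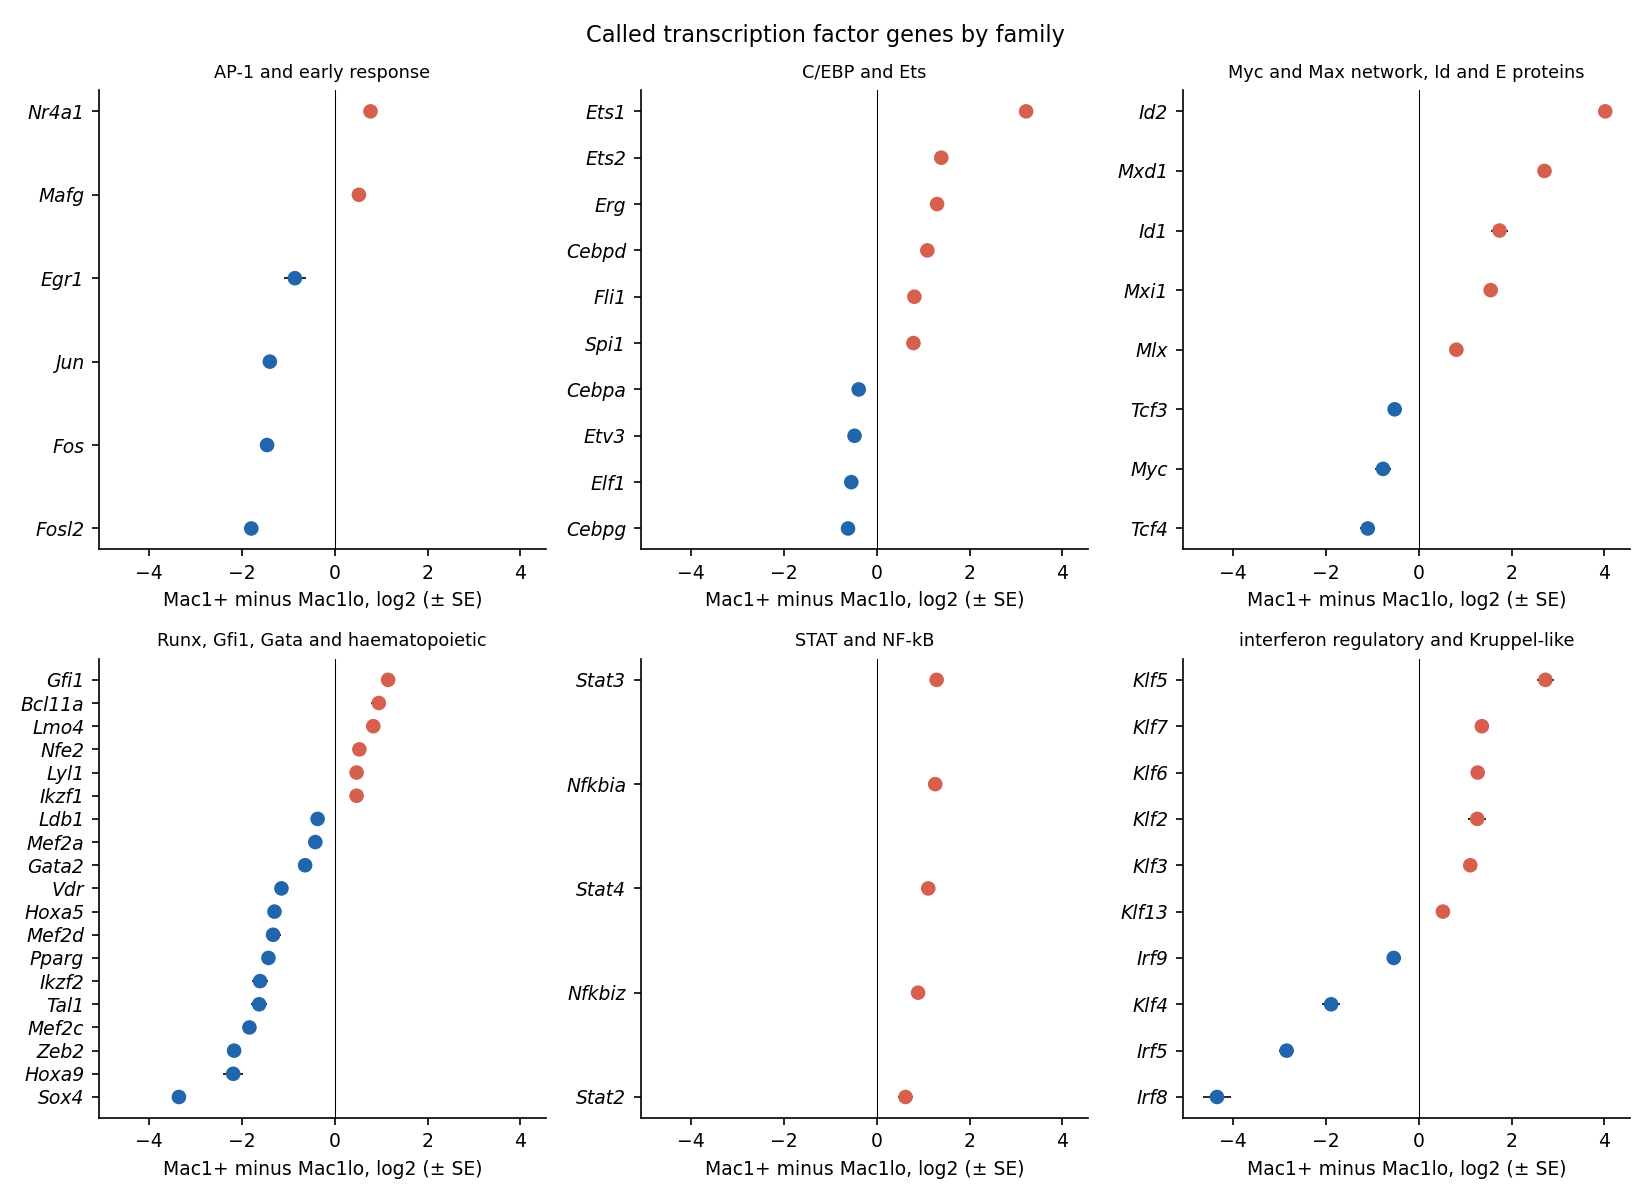
Difference between Mac1+ and Mac1lo cells (horizontal axis, log2, with the standard error as a bar) of the called transcription factor genes in 6 families, red higher and blue lower. Id2 (4.02), Ets1 (3.22) and Klf5 (2.73) lie highest and Irf8 (-4.35), Sox4 (-3.36) and Irf5 (-2.85) lowest.

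Mitosis genes rose together by small amounts. Of 50 measured, 47 were higher and 0 lower, with a median of 0.72, and 37 to 41 were higher with any 1 array left out; in the model of all 9 arrays 21 were. All 12 mitotic kinase and checkpoint genes rose. Ube2c, the E2 enzyme of the anaphase promoting complex, was 1528, 1192 and 1439 against 5106, 4937 and 5237, a rise of 1.87 ± 0.12 (limma adjusted p = 8.84e-05). Plk1, a mitotic kinase, rose by 1.32 ± 0.12, Aspm by 1.42 ± 0.10, Cenpe by 1.32 ± 0.14, Cenpf by 1.47 ± 0.10, Aurka by 1.19 ± 0.10 and Cdk1 by 0.65 ± 0.12; the calls of Cenpf, Aurka and Cdk1 were lost in the model of all 9 arrays, and other probe sets were as low as 0.15 for Aspm and 0.17 for Cenpf. Among DNA replication genes, 3 were higher (6.67%, against 12.5% of all genes) and 6 lower (13.3%, against 12.3%) of 45 (median -0.05), and with median gene centring 9 were higher and 3 lower (median 0.14); without Mac1lo replicate 3, 2 were higher and 3 lower. Mcm5, a helicase subunit, was 9442, 9724 and 9857 against 9273, 9177 and 10022 (-0.03 ± 0.09), not called. Pold2 fell by 0.77 ± 0.11 and Gins1 fell by 0.73 ± 0.09, while Cdc7, the origin kinase, rose by 0.57 ± 0.09 and Dbf4, its activator, by 0.60 ± 0.09, each with 1 of 2 probe sets called and the Dbf4 call lost in the model of all 9 arrays. Cell cycle control genes were 9 higher (36%) and 4 lower (16%, against 12.3% of all genes) of 25 (median 0.26). Ccnd1, cyclin D1, was 519, 674 and 489 against 48.6, 35.4 and 45.3, a difference of -3.28 ± 0.16, whereas Ccnd3 rose by 0.98 ± 0.09, with 2 of its 3 probe sets called and another at -0.15; of the inhibitors Cdkn2d rose by 1.98 ± 0.13 and Cdkn1a fell by 1.85 ± 0.13. E2f2 rose by 1.61 ± 0.15.

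Ribosome biogenesis genes fell, 31 of 39 with 0 higher and a median of -0.54. With any 1 array left out 20 to 27 were lower, fewest without Mac1lo replicate 3, with median gene centring 18, and in the model of all 9 arrays 6. Gnl3, nucleostemin, was 5735, 5799 and 5350.3 against 2554, 2908 and 2882, a difference of -1.01 ± 0.10, Nop2, an rRNA methyltransferase, fell by 1.01 ± 0.15 and Utp20 fell by 0.96 ± 0.18. Fbl, fibrillarin, fell by 0.51 ± 0.11, with the call lost without Mac1lo replicate 1 or 3 or Mac1+ replicate 2. Ribosomal protein genes were lower in 3 of 26 (11.5%, against 12.3% of all genes) and higher in 0, with a median of -0.01, and 1 was lower without Mac1lo replicate 3. Rpl14, which kept its call there, fell by 0.73 ± 0.10. Nucleotide and one-carbon genes were lower in 13 of 22 and higher in 1 (median -0.45): Atic fell by 1.24 ± 0.11 (1 of its 2 probe sets called), Dhodh fell by 0.94 ± 0.11 and Psat1 fell by 0.86 ± 0.12; 6 to 8 were lower without Mac1lo replicate 1, 2 or 3 or Mac1+ replicate 1, and 4 in the model of all 9 arrays. Respiratory chain genes were 1 higher (2.63%, against 12.5% of all genes) and 6 lower (15.8%, against 12.3%) of 38 (median -0.12, or 0.06 with median gene centring). With any 1 of the 6 arrays left out 0 were higher and 1 to 3 lower. Sdhb fell by 0.62 ± 0.11. Glycolysis genes were 6 higher (31.6%, against 12.5% of all genes) and 2 lower (10.5%, close to the 12.3% of all genes) of 19 (median 0.05). Slc16a3, a lactate transporter, was 64.7, 57.3 and 47.6 against 539, 679 and 672, higher by 3.15 ± 0.14. Pfkfb4 rose by 2.28 ± 0.11, and Pfkm fell by 1.12 ± 0.11.

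Lysosome genes were 5 higher (17.9%, against 12.5% of all genes) and 13 lower (46.4%, against 12.3%) of 28 (median -0.35). Without Mac1lo replicate 1, 2 or 3 or Mac1+ replicate 1 or 2, 6 to 7 were lower. Without Mac1lo replicate 2 or 3 or Mac1+ replicate 2 or 3, 2 to 3 were higher. Of the cathepsins, Ctsl fell by 1.18 ± 0.13, with another probe set at -0.13, and Ctsh fell by 1.10 ± 0.10, and Neu1, a sialidase, rose by 1.77 ± 0.17, with another probe set at -0.06. Iron and heme genes were 5 higher (20.8%) and 6 lower (25%) of 24. Without Mac1lo replicate 1, 2 or 3 or Mac1+ replicate 3, 3 were lower. Slc40a1, the iron exporter ferroportin, was 957, 1099 and 1031 against 7316, 6476 and 7145, higher by 2.74 ± 0.10. Cholesterol synthesis genes were 5 higher (22.7%) and 3 lower (13.6%, close to the 12.3% of all genes) of 22 (3 and 2 without Mac1lo replicate 3). Fdft1 rose by 0.97 ± 0.14, with 2 of its 4 probe sets called and another at 0.02. Interferon response genes were 13 higher (33.3%) and 12 lower (30.8%) of 39 (median -0.11, or 0.07 with median gene centring). Slfn4 rose by 3.48 ± 0.15, Ifitm6 by 3.17 ± 0.24 and Ddx58 by 2.07 ± 0.22, while Ifitm1 fell by 3.33 ± 0.14 and Gbp3 fell by 2.77 ± 0.09. Bcl2 family genes were 2 higher and 2 lower of 15, 13.3% each way and so close to the 12.5% and 12.3% of all genes (4 and 2 without Mac1+ replicate 1); Bcl2, the survival protein, was 3053, 3356 and 3313 against 418, 461 and 569, a difference of -2.72 ± 0.13. Actin and motility genes were 17 higher (47.2%) and 4 lower (11.1%, close to the 12.3% of all genes) of 36 (median 0.35). Gsn, gelsolin, which severs actin filaments, was 658, 724 and 729 against 8965, 8068 and 7811, higher by 3.53 ± 0.10 with 5 of its 6 probe sets called and another at -0.02, and Fgr, a Src family kinase, was 41.2, 47.1 and 39.1 against 1488, 1325 and 1225, higher by 4.54 ± 0.11. Vasp rose by 1.50 ± 0.10 and Evl fell by 1.56 ± 0.21. Tmsb10, thymosin beta 10, fell by 1.92 ± 0.13, but another of its probe sets gave 0.02. Eicosanoid synthesis genes were 6 higher (35.3%) and 2 lower (11.8%, close to the 12.3% of all genes) of 17. Without Mac1lo replicate 3, 3 were higher, and with any 1 array left out 1 was lower. Alox5, which starts leukotriene synthesis, rose by 2.82 ± 0.29 and Ptges by 1.42 ± 0.11 (1 of its 3 probe sets called). Cyp4f18 fell by 3.04 ± 0.11, though its other probe set was not called, at 0.08. Chromatin and DNA methylation genes were 5 higher and 5 lower of 33, 15.2% each way and close to the 12.5% and 12.3% of all genes, with 2 to 3 higher without Mac1lo replicate 2 or 3 or Mac1+ replicate 3, Kdm6b, a histone demethylase, rising by 1.73 ± 0.22; Cbx2 fell by 2.24 ± 0.23, Hdac9 fell by 1.93 ± 0.20 and Dnmt3b fell by 1.16 ± 0.18. The second probe sets of Cbx2 (0.03) and Hdac9 (-0.10) were not called.

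Of the 15 largest rises, several lie in no group above. Lrg1, a leucine-rich glycoprotein, was 213, 189 and 187 against 6093, 5773 and 6037, higher by 4.82 ± 0.09. Plbd1, a phospholipase B-like protein, rose by 4.82 ± 0.21, Olfml2b by 4.74 ± 0.13, Igf2r by 4.29 ± 0.11 and Cldn1, a tight junction protein, by 4.36 ± 0.28. Of the 15 largest falls, Ifi209 was 6193, 4872 and 5662 against 142, 129 and 233, a difference of -4.96 ± 0.22, and Prdx4, a peroxiredoxin, fell by 4.82 ± 0.21. Tmem109 fell by 4.77 ± 0.25, Pkib, an inhibitor of protein kinase A, fell by 4.61 ± 0.25, Rasa4, a Ras GTPase activator, fell by 4.50 ± 0.27, Ms4a4b fell by 4.41 ± 0.16 and Ahnak fell by 4.54 ± 0.39. Probe sets of some of these genes gave different calls: 1 of 4 for Ahnak, 3 of 5 for Tmem109, 1 of 2 for Ms4a4b and 2 of 4 for Cldn1. Even where every probe set was called, the size varied between them. The smallest fall was -0.69 for Prdx4, -0.61 for Rasa4, -1.67 for Pkib, -1.55 for S100a10 and -1.31 for Met. The smallest rise was 2.03 for Igf2r and 1.42 for C5ar1.

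Some of these genes are near neighbours. Camp, Ngp and Ltf lie on chromosome 9 with 31 protein-coding genes from Camp to Ltf (RefSeq gene order, GRCm38.p6). Of these 29 were measured, 6 higher and 2 lower, where all genes had 12.5% higher and 12.3% lower. The 6 include Camp, Ngp and Ltf, whose rises picked the stretch, so the count cannot show an excess among their neighbours. Besides these 3, Cdc25a rose by 0.94 ± 0.13, Nbeal2 by 1.15 ± 0.16 and Klhl18 by 0.77 ± 0.22, while Smarcc1 fell by 0.48 ± 0.10 and Pth1r fell by 0.81 ± 0.18. Of 17 measured Ms4a genes on chromosome 19, 8 were lower and 1 higher; the higher one, Ms4a3, rose by 0.39 ± 0.10, a call lost without Mac1lo replicate 2 or 3 or Mac1+ replicate 2 or 3. The 8 lower Ms4a genes include Ms4a4b, Ms4a4c and Ms4a6c, named above. The stretch from S100a10 to S100a1 on chromosome 3 holds 70 protein-coding genes, S100 genes named above among them. Of 48 measured, 6 were higher and 4 lower, where all genes had 12.5% and 12.3%. These stretches were chosen after the values were seen.

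Markers of other cell types included those of the erythroid, B and T lineages, whose antigens the sort kept out. Under an intensity of 100 on all 6 arrays were 7 of 10 erythroid, 6 of 10 megakaryocyte and platelet, 7 of 11 B lineage, 9 of 10 T and NK, 5 of 10 mast cell and basophil, 5 of 7 eosinophil and 10 of 12 stroma and endothelium markers. In these lists 0 to 20% of markers were called higher and 0 to 20% lower, where all genes had 12.5% and 12.3%. Erythroid markers summed to 592 to 667 in Mac1lo and 589 to 705 in Mac1+ cells (1 of 10 higher, 1 lower), and megakaryocyte and platelet markers to 375 to 447 and 433 to 546 (2 of 10 higher, 1 lower). Stroma and endothelium markers summed to 576 to 617 and 254 to 339 (0 of 12 higher, 2 lower), with Pdgfrb and Pecam1 falling. Eosinophil markers summed to 738 to 987 and 2196 to 2413 (1 of 7 higher, 0 lower), with Siglecf higher by 1.55 ± 0.13. The median difference of the 7 was 0.07, and 1 of them was over 100 on all Mac1lo arrays and 1 on all Mac1+ arrays. Mast cell and basophil markers summed to 4040 to 4816 and 6896 to 7602 (1 of 10 higher, 2 lower), with a median difference of 0.06. Hdc, histidine decarboxylase, rose by 1.07 ± 0.13. The 2 lower were Cpa3 (-0.81) and Gata2 (probe sets at -0.64 and -0.47), calls lost under 9 and 3 other settings. The T and NK markers summed to 7733 to 8181 and 10836 to 12060 (1 of 10 higher, 1 lower), nearly all of it Nkg7, a granule protein, at 8000.4, 7577 and 7599 against 11202, 10680.4 and 11877. B lineage markers summed to 17933 to 19650 and 9691 to 18524 (0 of 11 higher, 1 lower). Ebf1, a B lineage factor, was 7051, 11104 and 11397 against 11772, 8838 and 1898, low in Mac1+ replicate 3, and Ighm was 9661, 4927 and 6228 against 5357, 5109 and 6195; neither was called. The sex markers gave 0 higher and 0 lower of 4. The part of these cell types in the differences above was not tested.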

How the data were processed

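RNA was amplified in 2 rounds and hybridised to Affymetrix mouse arrays, per the labels' protocols. The deposited values are linear intensities, 1 per probe set and array, made by the authors; the summary and scaling that produced them are not given in the sources used here, so the precision of a single value is unknown and the number of arrays limits it. The file holds 45101 probe sets. Of these, 34945 named 1 gene in the platform annotation, 932 named several and 9160 none, and 64 were controls; 99.4% of the symbols matched the RefSeq gene table by gene ID. Each gene was represented by its probe set with the highest mean over all 9 arrays. Values were taken as log2(max(value, 0) + 16) and fitted with limma 3.58.1 (R 4.3.3; lmFit and eBayes) on the 6 progenitor arrays only, with the wider spread of the neutrophils left out, and adjusted by Benjamini-Hochberg over 18193 genes. An exact permutation test of 3 arrays against 3 cannot go below 0.1. The script was tested on simulated data.

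The members and the 41 gene lists (1046 symbols, 954 measured) were chosen with earlier results of these data known. Named genes are the sort antigens, the 15 largest calls each way among non-overlapping genes whose higher group lay above the median gene, and up to 5 calls per list with the largest difference (the 2 smallest p where a list had none). Other genes were chosen after their values were seen, among them Lcn2, Camp, Mmp8, Mpo, Elane, Ctsg, Prtn3, Ccr2, Ebf1, Ighm, Cebpa, Cebpb, Cebpd, Spi1, Gfi1, Myc, Myb and Mcm5. Alternatives covered the arrays fitted, the replicate number as a block, scaling, offset, filter, choice of probe set, variance prior, array weights, a 2-fold threshold and each array left out; centring on the median gene was added after the data were seen.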

Additional observations from a re-analysis of the deposited data

Results flagged for a closer look

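Of 10092 probe sets that name no single gene, and so enter no comparison of the report, 852 were called between Mac1+ and Mac1lo cells (480 higher, 372 lower; limma adjusted over 45037 probe sets). They were set apart because they are data outside the main measurement; there are no control samples to set them against.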

How the results depend on the processing

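The count of calls (4509: 2274 higher, 2235 lower) fell to 2151 (1148 higher, 1003 lower) in the model of all 9 arrays and to 554 (270 and 284) when tested against a 2-fold change, and rose to 7275 (3783 and 3492) with every probe set on its own. Centring on the median gene gave 3962 higher and 1467 lower. With each array left out in turn the total was 3175 to 4203, with 1637 to 2177 higher and 1538 to 2066 lower. Deviations of same-numbered arrays from their group means correlated at r = -0.31, 0.01 and -0.16 across genes. With 3 arrays per group these values cannot show whether the numbers pair the samples. The replicate block gave 3035 calls (1542 higher, 1493 lower). Of 225 genes covered, 211 were called, and 45 of these lost the call under a setting other than the 2-fold test. No called gene changed sign except Tmsb10 (0.02 without x_at and s_at probe sets). Of genes not called, Kit was -0.03 after quantile normalization, Mcm5 0.01 with arrays centred on their medians, and, centred on the median gene, Eif2s3y 0.01, Mpo 0.13, Prtn3 0.12, Myb 0.10 and Mcm5 0.16. With each array left out in turn Mmp8 was -0.11 to 0.26, Mpo -0.16 to 0.02, Ctsg -0.04 to 0.09, Ebf1 -1.23 to 0.08 (positive without Mac1+ replicate 3) and Cebpb -0.09 to 0.22. The cause was not tested. Calls were scarcest among dim genes: 7% of genes under a log2 level of 6 were called, against 42.4% of those from 8 to 10.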
